A study of Homo sapiens with 2 samples.

Results

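The genes described here encode the heat shock chaperones of the cytosol, nucleus and mitochondria and the factors that work with them. They were chosen by symbol: the HSP70 and HSP110 genes (HSPA, HSPH), the HSP90A genes, the small heat shock protein genes (HSPB), the mitochondrial chaperonin (HSPD, HSPE), the DNAJA, DNAJB and DNAJC co-chaperones, the CCT chaperonin (CCT, TCP1), the BAG factors and the heat shock transcription factors (HSF), without 6 genes of the endoplasmic reticulum (HSPA5, HSPA13, DNAJB9, DNAJB11, DNAJC3 and DNAJC10). The rule matched 70 gene symbols, and 61 of these averaged 1 FPKM or more across the libraries, as did 10601 genes in all. FPKM counts sequenced fragments per kilobase of transcript and per 1000000 mapped fragments, and the values of the listed transcripts were summed for each gene.

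The cells were THP-1, an established human monocytic line from an acute myeloid leukaemia, cultured in RPMI-1640 medium with serum. In the DMSO group the cells received the solvent for 48 h, and in the OPA1 group they received 2 µM of an agent labelled OPA1 for 48 h; OPA1 in this text is that agent and not the mitochondrial fusion gene of the same symbol. Each group was 1 library, so no difference has a replicate check, no test was possible and no p-value is given. Of 12 genes typical of monocytic leukaemia cells, 11 averaged 1 FPKM or more, and they summed to 1434 FPKM in the DMSO library against 1682 FPKM in the OPA1 library; CD14 was not analysed here. Most of that difference lay in AZU1 at 702 against 845 FPKM and ELANE at 363 against 448 FPKM, while MPO, CSF1R, CD68 and FCGR1A were lower. Of 12 markers of other cells, 2 were listed, and they summed to 0.733 against 0.638 FPKM. Whether the myeloid genes and the chaperones moved together was not tested, and in bulk RNA a smaller share of cells of a type cannot be told apart from less RNA per cell. The listed values of each library summed to 325059 and 331515 FPKM, and the read depth behind them is unknown.

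Chaperones bind unfolded protein segments and release them in cycles of ATP binding and hydrolysis. J domain proteins of the DNAJ classes deliver clients to HSP70 and stimulate its ATPase, and exchange factors such as HSPH1 and several BAG proteins open it again. HSP90 and the ring-shaped chaperonins act on clients further along the folding path. Transcription of the inducible members depends on HSF1, which HSP70 and HSP90 hold inactive in unstressed cells and which binds arrays of inverted GAA units, the heat shock elements, in their promoters. Leukaemia cells, like other dividing cells, express the constitutive members strongly, since they fold kinases, cytoskeletal proteins and imported mitochondrial proteins.

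The promoters were searched first for that element, because it is the shared control sequence of the inducible members. RefSeq starts on GRCh38.p14 were available for 53 of the 61 genes, and the 250 bases before each start were read. The 2-unit motif was GAANNTTC or TTCNNGAA, each of which reads the same on both strands. The 3-unit motif was GAA, TTC and GAA, or TTC, GAA and TTC, with any 2 bases between neighbouring units. These orders are each other's reverse complements and hold overlapping 2-unit matches. The 3-unit motif lay before 5 of the 53 genes (9.43%) and the 2-unit motif before 17 (32.1%), against 0.557% and 14.0% of all 27305 genes with such windows. Counted by window, the shares were 6.76% and 23.0% of the 74 chaperone windows. Windows of all genes averaging 1 FPKM or more numbered 12295, with shares of 0.301% and 8.93%. A match describes letters and is not a shown binding site, and the RefSeq start may not be the start used in these cells. The 5 windows with the 3-unit motif are shown because they belong to 4 of the most abundant chaperone genes and to DNAJB6, with unlike values in these libraries. Capitals mark the matches, and the strand is that of the gene. The windows are HSPD1 (chr2:197499841-197500090, minus strand), HSP90AB1 (chr6:44247693-44247942, plus strand), DNAJB6 (chr7:157336754-157337003, plus strand), HSPA8 (chr11:123062137-123062386, minus strand) and HSP90AA1 (chr14:102087045-102087294, minus strand).
HSPD1: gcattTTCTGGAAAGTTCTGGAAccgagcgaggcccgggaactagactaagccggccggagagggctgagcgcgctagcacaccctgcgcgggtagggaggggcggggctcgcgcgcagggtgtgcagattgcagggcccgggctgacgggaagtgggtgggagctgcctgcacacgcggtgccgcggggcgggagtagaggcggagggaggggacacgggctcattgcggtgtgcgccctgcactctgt
HSP90AB1: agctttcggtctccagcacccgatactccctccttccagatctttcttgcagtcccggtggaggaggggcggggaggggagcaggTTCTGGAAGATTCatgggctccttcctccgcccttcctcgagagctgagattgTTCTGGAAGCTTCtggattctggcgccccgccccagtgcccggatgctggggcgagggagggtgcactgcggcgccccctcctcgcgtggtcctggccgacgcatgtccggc
DNAJB6: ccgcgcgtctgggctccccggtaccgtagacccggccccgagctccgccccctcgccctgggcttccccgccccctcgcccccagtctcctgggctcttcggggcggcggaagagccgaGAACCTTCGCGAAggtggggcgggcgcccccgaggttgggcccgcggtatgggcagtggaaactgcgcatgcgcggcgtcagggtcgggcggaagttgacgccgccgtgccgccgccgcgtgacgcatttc
HSPA8: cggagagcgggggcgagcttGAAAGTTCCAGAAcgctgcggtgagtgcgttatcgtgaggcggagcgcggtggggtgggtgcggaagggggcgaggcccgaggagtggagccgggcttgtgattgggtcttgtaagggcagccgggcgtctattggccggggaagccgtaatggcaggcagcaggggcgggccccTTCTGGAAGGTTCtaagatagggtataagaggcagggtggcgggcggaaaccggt
HSP90AA1: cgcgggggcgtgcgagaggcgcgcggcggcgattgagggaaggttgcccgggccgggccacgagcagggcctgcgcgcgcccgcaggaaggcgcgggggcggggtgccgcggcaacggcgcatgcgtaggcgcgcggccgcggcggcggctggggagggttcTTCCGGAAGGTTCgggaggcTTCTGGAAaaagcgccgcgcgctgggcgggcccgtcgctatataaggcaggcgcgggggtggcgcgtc

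HSPA1A (chr6:31815293-31815542, plus strand) and HSPA1B (chr6:31827488-31827737, plus strand), which encode the major inducible HSP70, are shown beside each other because the sequences before their starts are close copies. Aligned end to end, 235 of 251 columns were identical. Each held 1 match to the 2-unit motif, 106 bases before the start in HSPA1A and 105 bases before it in HSPA1B.
HSPA1A: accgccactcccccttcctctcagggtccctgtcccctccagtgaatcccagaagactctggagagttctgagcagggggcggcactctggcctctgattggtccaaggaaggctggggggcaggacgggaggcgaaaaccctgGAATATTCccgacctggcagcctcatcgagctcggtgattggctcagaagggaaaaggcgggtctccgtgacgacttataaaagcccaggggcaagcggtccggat
HSPA1B: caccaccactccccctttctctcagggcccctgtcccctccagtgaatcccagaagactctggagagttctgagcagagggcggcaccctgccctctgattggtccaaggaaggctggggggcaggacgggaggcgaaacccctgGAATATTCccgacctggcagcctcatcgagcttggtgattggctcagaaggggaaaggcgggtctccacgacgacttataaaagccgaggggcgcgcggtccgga

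The chaperone genes as a whole were nearly level between the libraries. They summed to 5686 FPKM in the DMSO library and 5598 FPKM in the OPA1 library, or 1.75% and 1.69% of the FPKM listed for each. Ratios below are log2 ratios of OPA1 over DMSO after 1 FPKM was added to each value, a step that understates the change of low genes. A fold beside a gene's values is the plain ratio, while counts of genes past a limit use the log2 scale. The median log2 ratio was -0.01 over the 61 genes and 0.00 over all 10601 genes. The quartiles of the chaperone genes were -0.10 and 0.14, and those of all genes -0.15 and 0.16. In direction alone, 27 were higher and 34 lower, where 49.9% of all genes were higher. None of the 61 genes was at least 2-fold higher, where 1.97% of all genes were, and 2 (3.28%) were at least 2-fold lower, where 1.99% of all genes were. At a limit of 0.32 in size on the log2 scale, chosen after seeing the data, 4 genes (6.56%) were higher and 8 (13.1%) lower, against 12.6% and 11.3% of all genes. The 4 were HSPE1-MOB4, DNAJC11, CCT8 and BAG3, and the 8 were DNAJC7, DNAJC16, DNAJB6, DNAJC2, HSP90AA1, HSPA9, HSF1 and DNAJA3. Among the 21 chaperone genes with a mean of 50 FPKM or more, none was 2-fold apart, where 0.364% of all such genes were that much higher and 0.82% lower. At the lower limit 1 of the 21 (4.76%) was higher and 2 (9.52%) lower, against 6.56% and 5.74% of all genes at that level.

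**Figure D1:**
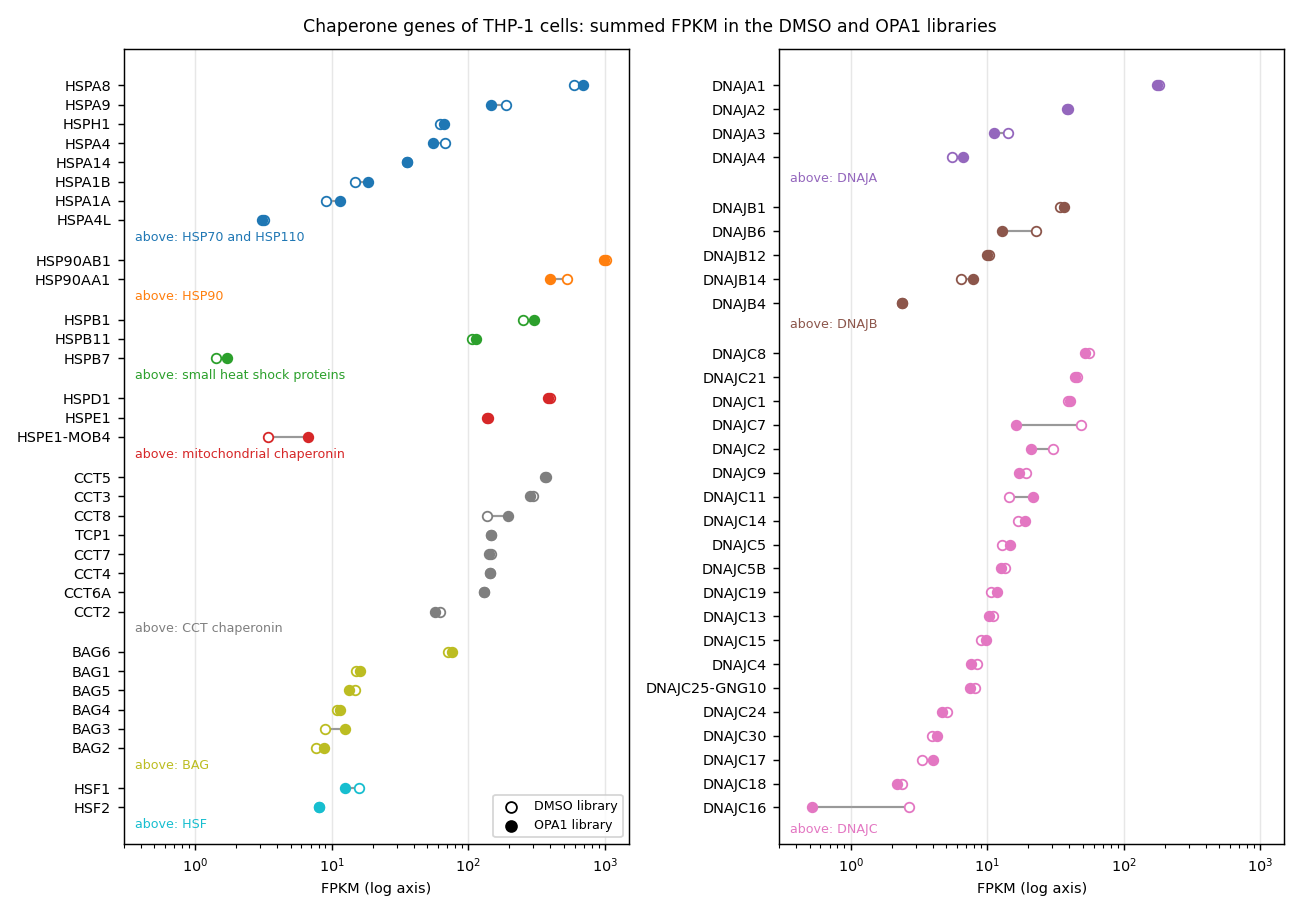
Summed FPKM (log axis) of the 61 chaperone genes in the DMSO library (open circles) and the OPA1 library (filled circles), 1 library each, with each family's name under its genes. The levels run from means of 1.57 FPKM for HSPB7 to 1002 FPKM for HSP90AB1, and in most genes the circles nearly touch, with longer lines for DNAJC7, DNAJC16, DNAJB6 and HSPE1-MOB4.

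The genes differed far more in level than between libraries. HSP90 genes carried 27.3% of the chaperone FPKM with DMSO and 24.6% with OPA1, and the CCT chaperonin carried 25.3% and 26.1%. HSP70 and HSP110 genes came next with 17.1% and 18.4%, ahead of the 29 DNAJ genes together with 11.9% and 11.1%. The HSPD and HSPE genes, with HSPE1-MOB4 among them, held 9.42% and 9.48%. The chaperonin genes HSPD1 and HSPE1 alone summed to 532.0 FPKM with DMSO and 523.9 FPKM with OPA1. Near the limit of 1 FPKM, HSPB7 with a mean of 1.57 FPKM and DNAJC16 with a mean of 1.60 FPKM were kept, while HSPA2 with 0.912 FPKM and DNAJC27 with 0.865 FPKM were not. The other 7 genes below the limit were CCT6B, DNAJB2, DNAJC6, DNAJC22, HSF2BP, HSF4 and HSPA1L. HSPE1-MOB4 and DNAJC25-GNG10 are readthrough genes that join a chaperone gene to its neighbour. HSPB11, an intraflagellar transport protein, carries a heat shock symbol by historical naming.

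**Figure D2:**
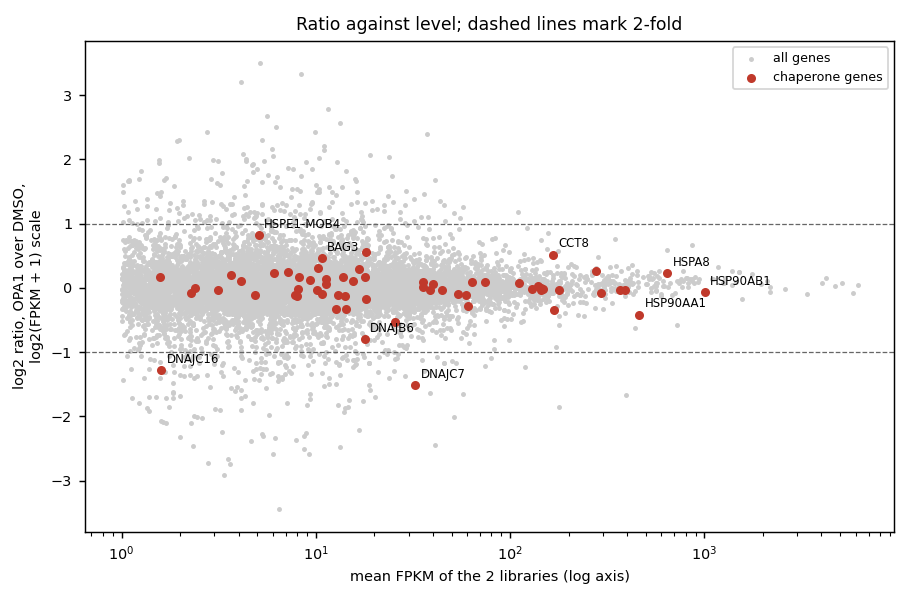
Log2 ratio of OPA1 over DMSO on the log2(FPKM + 1) scale against the mean FPKM of the 2 libraries (log axis), with all 10601 genes in grey and the 61 chaperone genes in red. DNAJC7 and DNAJC16 lie below the dashed 2-fold line at -1, and no chaperone gene lies above the line at 1.

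The transcription factor HSF1, the main activator of heat shock genes, was lower in the OPA1 library. It was at 15.97 FPKM in the DMSO library and 12.5 FPKM in the OPA1 library (1.28-fold lower, log2 ratio -0.34), and both of its listed transcripts were lower, HSF1-201 at 9.37 against 7.44 FPKM and HSF1-204 at 6.60 against 5.01 FPKM. HSF2, which can form mixed trimers with HSF1, was level at 8.08 against 8.01 FPKM. In pairs of values, here and below, the DMSO library comes first.

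Inducible and constitutive HSP70 genes were somewhat higher in the OPA1 library. HSPA1A (chromosome 6, 31783241 to 31785723, hg19) was at 9.04 against 11.5 FPKM (1.27-fold higher, log2 ratio 0.31). HSPA1B (chromosome 6, 31795512 to 31798032) was at 14.9 against 18.4 FPKM (1.23-fold higher, log2 ratio 0.29). These neighbouring genes have nearly the same coding sequence, so the division of reads between them is uncertain; their sum was 23.9 against 29.8 FPKM. HSPA8, the constitutive cytosolic HSP70 (chromosome 11, 122928197 to 122933060), stood far above them at 591 against 692 FPKM (1.17-fold higher, log2 ratio 0.23). Its transcripts for the full protein held under 1% of that FPKM, so the level itself is uncertain; weighted by transcript length it was 499 against 584 FPKM. HSPA14, an HSP70 that works at the ribosome, was level at 35.4 against 35.8 FPKM, and the sign of its ratio changed when each library was rescaled to the same sum.

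The exchange factors of the HSP110 type gave mixed values. HSPH1 was at 61.9 against 66.0 FPKM (log2 ratio 0.09). HSPA4 was at 67.0 against 54.9 FPKM (1.22-fold lower, log2 ratio -0.28), but its transcripts went opposite ways. HSPA4-201, of 4825 bases in GENCODE release 29, was at 36.8 against 54.9 FPKM, and HSPA4-205, of 2358 bases, was at 30.2 FPKM under DMSO but listed at 0 under OPA1. With each transcript's FPKM weighted by its length, a calculation added after seeing the data, the log2 ratio of HSPA4 was 0.09, so its direction depends on how transcripts are combined. HSPA4L, its less abundant relative, was at 3.20 against 3.10 FPKM. In all, 5 of the 8 HSP70 and HSP110 genes were higher, and the median of their log2 ratios was 0.05.

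HSP90 completes the folding of kinases and steroid receptors, and its inducible form was lower with OPA1. HSP90AA1 (chromosome 14, 102547075 to 102606023, hg19) was at 528 against 395 FPKM (1.34-fold lower, log2 ratio -0.42). Its main transcript HSP90AA1-201 was at 513 against 391 FPKM, and the minor HSP90AA1-202 was at 8.92 against 0.048 FPKM. HSP90AB1, the constitutive form, was at 1023 against 981 FPKM (log2 ratio -0.06). HSP90AA1 therefore made up 34.0% of the summed HSP90 FPKM with DMSO and 28.7% with OPA1. Both promoters hold 3-unit heat shock elements in the windows shown above, as does that of HSPA8, whose value was higher. Both genes have many sequence copies in the genome, so some of their reads may have been placed elsewhere.

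HSPB1, the small heat shock protein that binds unfolding proteins without ATP, was higher with OPA1. It was at 252 against 302 FPKM (1.2-fold higher, log2 ratio 0.26), of which HSPB1-201 carried 246 against 297 FPKM. HSPB7 was low in both libraries at 1.42 against 1.72 FPKM. HSPB11 was at 107 against 114 FPKM. All 3 genes of this symbol class were higher, with a median log2 ratio of 0.17.

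**Figure D3:**
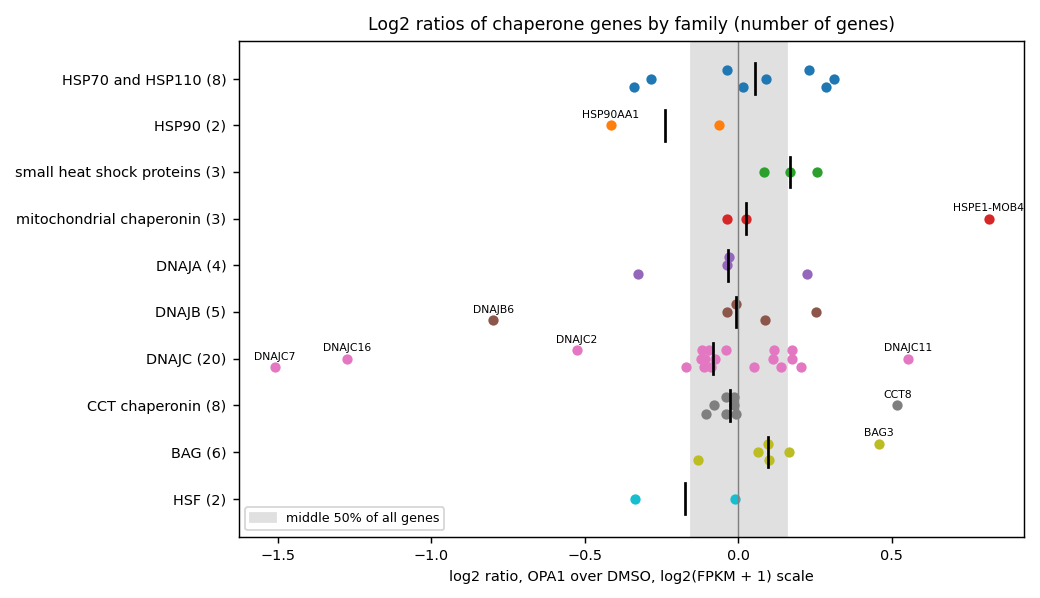
Log2 ratios of OPA1 over DMSO on the log2(FPKM + 1) scale for the 61 chaperone genes by family, with the number of genes in brackets, a black bar at each family's median and a grey band for the middle 50% of all genes (-0.15 to 0.16). Symbols are printed for ratios of at least 0.4 in size; the CCT genes other than CCT8 lie in a narrow group next to 0.

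The mitochondrial folding genes were level at the chaperonin and lower at its HSP70. HSPD1, which encodes the chaperonin HSP60 (chromosome 2, 198351305 to 198364998, hg19, minus strand), was at 395 against 384 FPKM (log2 ratio -0.04). HSPE1, its lid HSP10 (chromosome 2, 198364718 to 198368181, plus strand), was at 137 against 139.5 FPKM (log2 ratio 0.02), and its sign too changed with that rescaling. Like the HSP90 genes, both have processed copies in the genome that can share reads. These genes are arranged head to head and their annotated spans overlap at the starts, and the sources used here do not say whether counting used strand. The ratio of HSPE1 to HSPD1 was 0.347 with DMSO and 0.363 with OPA1. HSPA9, the mitochondrial HSP70 that pulls proteins through the inner membrane, was at 188 against 148 FPKM (1.27-fold lower, log2 ratio -0.34). DNAJA3, the J protein partner of HSPA9 in the matrix, was at 14.3 against 11.2 FPKM (log2 ratio -0.32). Its longest form DNAJA3-201 was at 9.43 against 10.6 FPKM, and the lower sum came from DNAJA3-202 at 3.58 against 0.448 FPKM and DNAJA3-203 at 1.28 against 0.125 FPKM. HSPE1-MOB4 was at 3.40 against 6.74 FPKM (log2 ratio 0.82); it shares exons with HSPE1 and with MOB4, itself at 18.8 against 15.7 FPKM, so its value is uncertain.

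Other J proteins of mitochondria differed by less, apart from DNAJC11. DNAJC11, a protein linked to the complexes that shape the cristae, was at 14.4 against 21.6 FPKM (1.5-fold higher, log2 ratio 0.55), and the higher sum came from DNAJC11-202 at 12.8 against 21.6 FPKM. DNAJC19, of the import motor, was at 10.6 against 11.8 FPKM and DNAJC15, its relative, at 8.96 against 9.80 FPKM. Of the 9 genes placed in mitochondria from textbook knowledge, 5 were higher, and the median of their log2 ratios was 0.02.

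The cytosolic J proteins that serve HSP70 most broadly were level. DNAJA1 was at 181 against 176 FPKM, and DNAJA2 was at 38.9 against 38.1 FPKM. DNAJB1, the heat-inducible J protein of the disaggregating HSP70 system, was at 34.4 against 36.5 FPKM (log2 ratio 0.09). DNAJB4 was at 2.39 against 2.37 FPKM, and DNAJA4 at 5.51 against 6.60 FPKM (log2 ratio 0.22). In the endoplasmic reticulum membrane, DNAJB12 was at 10.2 against 9.96 FPKM and DNAJB14 at 6.46 against 7.88 FPKM, so the label of cytosolic and mitochondrial chaperones does not cover every gene the symbols bring in.

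DNAJC7 had the lowest ratio of the 61 genes with 1 FPKM added. With 0.1 FPKM added, the scarce DNAJC16 was lower. It was also lower after each library was rescaled to a sum of 1000000, which raises all values so that the added 1 weighs less. DNAJC7 carries tetratricopeptide repeats and passes clients between HSP70 and HSP90. The gene (chromosome 17, 40128451 to 40169671, hg19) was at 48.5 against 16.4 FPKM (2.96-fold lower, log2 ratio -1.51). The lower sum came from 1 transcript: DNAJC7-201 was at 37.2 against 0.654 FPKM, while DNAJC7-203 was at 8.93 against 11.4 FPKM and DNAJC7-213 at 0.861 against 2.20 FPKM. DNAJC7-202, which GENCODE release 29 gives the same coding length of 438 residues as DNAJC7-201, was at 0.462 against 0.906 FPKM. Division of reads among such overlapping transcripts is an estimate, and its part in the result was not tested.

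DNAJB6, which keeps polyglutamine proteins from aggregating, was at 22.9 against 12.7 FPKM (1.80-fold lower, log2 ratio -0.80). Its longest listed form carried the difference. DNAJB6-201, of 326 residues, was at 19.3 against 7.98 FPKM, and DNAJB6-204, of 241 residues, was at 3.55 against 3.66 FPKM. DNAJC2, a J protein of the ribosome that works with HSPA14, was at 30.3 against 20.8 FPKM (1.46-fold lower, log2 ratio -0.53), and both of its transcripts were lower. DNAJC16, at low level, was at 2.68 FPKM in DNAJC16-202 with DMSO and at 0.523 FPKM in DNAJC16-210 with OPA1, each transcript being listed at 0 in the other library (5.13-fold lower, log2 ratio -1.27). With 0.1 FPKM added its log2 ratio was -2.16, against -1.56 for DNAJC7.

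The remaining DNAJC genes differed little. DNAJC17, a nuclear protein, was at 3.32 against 3.99 FPKM and DNAJC5, a vesicle-bound J protein, at 12.9 against 14.7 FPKM. The other 14 DNAJC genes, which lie between the 3 highest and the 3 lowest ratios, had log2 ratios from -0.17 (DNAJC9, a histone chaperone, at 19.2 against 16.98 FPKM) to 0.17 (DNAJC14, at 16.7 against 19.0 FPKM), and none passed 0.32 in size. DNAJC8, of the spliceosome, was at 55.8 against 52.1 FPKM and DNAJC21, of ribosome assembly, at 45.0 against 43.8 FPKM. DNAJC13, an endosomal protein, was at 11.1 against 10.4 FPKM, and DNAJC24, of diphthamide synthesis, at 5.08 against 4.63 FPKM. DNAJC1 and DNAJC18, of the endoplasmic reticulum, were at 39.1 against 40.7 FPKM and at 2.36 against 2.19 FPKM. DNAJC4 and DNAJC30, of mitochondria, were at 8.41 against 7.64 FPKM and at 3.91 against 4.31 FPKM. DNAJC5B was at 13.6 against 12.5 FPKM, and DNAJC25-GNG10 at 8.18 against 7.47 FPKM; the latter shares exons with DNAJC25 and GNG10, so its value is uncertain. Of the 20 DNAJC genes, 12 were lower, and their median was -0.08. The 4 DNAJA genes had a median of -0.03 and the 5 DNAJB genes a median of -0.01.

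The CCT chaperonin, a ring of 8 different subunits that folds actin and tubulin, was level in 7 subunits and higher in CCT8. TCP1 was at 148 against 146 FPKM, CCT4 at 144 against 143 FPKM and CCT7 at 146 against 142 FPKM. CCT6A was at 131 against 129 FPKM, CCT5 at 374 against 364 FPKM, CCT3 at 300.2 against 284 FPKM and CCT2 at 61.8 against 57.4 FPKM. The log2 ratios of these 7 genes lay between -0.11 and -0.01, but CCT5 and TCP1 had the opposite sign when the leading transcript stood for the gene, and CCT3 did when transcripts were weighted by length. CCT8 (chromosome 21, 30428126 to 30446118, hg19) was at 136 against 196 FPKM (1.43-fold higher, log2 ratio 0.52). Its main transcript CCT8-201 was at 133 against 155 FPKM, and CCT8-211 was at 1.05 against 36.8 FPKM, so most of the difference lay in the second of them. The subunits form the ring in equal numbers, yet their levels spread 6.04-fold with DMSO and 6.34-fold with OPA1, from CCT2 to CCT5 in both.

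Behind the level sums of CCT2 and CCT3, the estimated transcript values differed widely between the libraries. Division of reads among overlapping transcripts is an estimate, and its part in these differences was not tested. For CCT2, 50.5% of the FPKM lay on another transcript in the other library: CCT2-201 was at 42.7 against 17.6 FPKM and CCT2-202 was listed at 0 under DMSO but carried 50.5% of the gene under OPA1. For CCT3, CCT3-211 was at 228 against 118 FPKM and CCT3-201 at 58.1 against 159 FPKM. DNAJB12 and BAG6 behaved likewise, with 46.8% and 26.0% of FPKM on other transcripts. Over 10% of the FPKM lay on another transcript in 19 of the 61 chaperone genes (31.1%), against 39.6% of all genes. Of the 44 chaperone genes with more than 1 listed transcript, that was 43.2%, against 58.2% of all such genes.

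**Figure D4:**
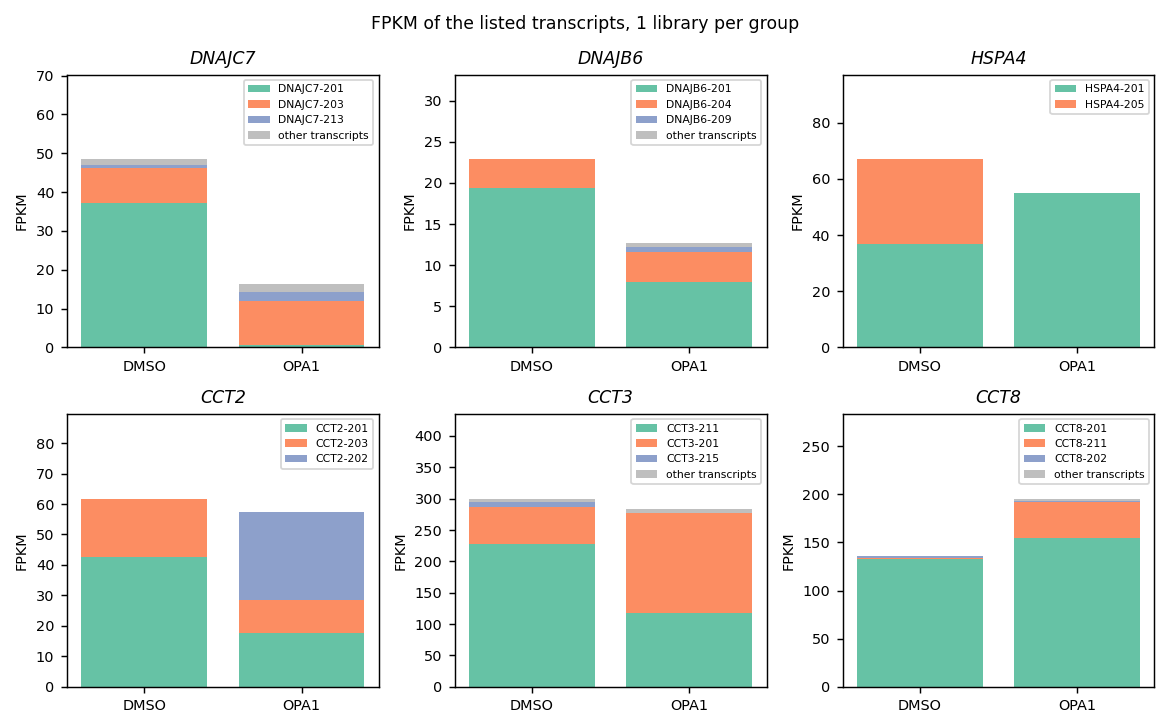
FPKM of the listed transcripts of 6 chaperone genes in the DMSO and OPA1 libraries (1 library per group), stacked with the 3 highest transcripts in colour and the others in grey. DNAJC7-201 is nearly absent from the OPA1 bar, HSPA4-205 and CCT2-202 each appear in 1 library, and CCT2 and CCT3 keep nearly the same total with other transcripts.

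The BAG genes, several of whose products open the nucleotide pocket of HSP70 and link it to degradation or survival pathways, were mostly a little higher. BAG3, the stress-inducible member that joins HSP70 to small heat shock proteins and selective autophagy, was at 8.89 against 12.6 FPKM (1.42-fold higher, log2 ratio 0.46). Both of its transcripts were higher, BAG3-201 at 8.53 against 11.5 FPKM and BAG3-202 at 0.363 against 1.14 FPKM. BAG1, which binds HSP70 and the proteasome, was at 14.98 against 16.1 FPKM and BAG2, an inhibitor of the ubiquitin ligase CHIP, at 7.66 against 8.71 FPKM. BAG4 was at 11.0 against 11.5 FPKM, and BAG6, which guides tail-anchored proteins, at 71.4 against 76.5 FPKM. BAG5 was at 14.8 against 13.4 FPKM and was alone of the 6 in being lower, and the family median was 0.10; BAG6 was also lower when its leading transcript stood for the gene.

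Set beside the promoter motif, the values did not go 1 way. Of the 5 genes with the 3-unit motif, HSPA8 was higher and the other 4 lower, with log2 ratios from -0.80 to 0.23 and a median of -0.06. Of the 12 genes with 2-unit matches alone, 7 were higher and 5 lower, with a median of 0.10; HSPA1A, HSPA1B and HSPB1 were the highest of these. The 36 genes with neither had a median of -0.03. This split rests on exact letters within 250 bases, and the 36 include the stress-inducible BAG3 and HSPE1, which lies head to head with HSPD1. The genes with the 3-unit motif were also the more abundant, with a median level of 461.5 FPKM against 16.7 FPKM for those with neither, although DNAJB6 was not.

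Partners of these chaperones that the symbols do not cover were also measured. Of 25 HSP90 co-chaperone genes, 12 were higher, the median of the log2 ratios was -0.01, and none reached 2-fold on that scale. PTGES3, the p23 protein that holds HSP90 closed, was at 122 against 186 FPKM, with 64.5% of its FPKM on other transcripts. CDC37, which brings kinases to HSP90, was at 53.2 against 66.1 FPKM. SUGT1 was at 18.01 against 12.2 FPKM and PPP5C, a phosphatase bound to HSP90, at 19.3 against 13.6 FPKM. Of 13 other HSP70 co-chaperone genes, 5 were higher, and their median was -0.04. None passed 2-fold on the log2 scale, where 1.97% of all genes were that much higher and 1.99% lower. HSCB, the J protein of iron-sulphur cluster transfer, was low at 2.16 against 0.899 FPKM, with 47.7% of its FPKM on other transcripts. SEC63 was at 69.3 against 59.7 FPKM. STUB1, which encodes CHIP, was at 20.9 against 18.4 FPKM, with 36.9% on other transcripts.

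Genes of mitochondrial protein quality control were lower for 14 of 19, where 5307 of all 10601 genes were lower, and their median was -0.05. Of the 19, 1 was at least 2-fold higher, where 1.97% of all genes were. It was HTRA2 at 1.09 against 5.33 FPKM, with 25.2% of its FPKM on other transcripts and a DMSO value near 1 FPKM. Outside it, the protease CLPP was at 31.9 against 21.2 FPKM, SPG7 at 9.80 against 12.1 FPKM and PAM16, of the import motor, at 27.0 against 22.5 FPKM. Of 11 prefoldin and CCT partner genes, 4 were higher, and their median was -0.08. PFDN2, a prefoldin subunit, was at 26.0 against 64.8 FPKM from 1 listed transcript (log2 ratio 1.28). It was the only 1 of the 11 past 2-fold, where 1.97% of all genes were at least 2-fold higher and 1.99% lower. Its partners PFDN5 at 139 against 143 FPKM and PFDN6 at 116 against 109 FPKM were near level. VBP1, a further subunit, was at 36.8 against 31.8 FPKM. URI1 was at 12.4 against 9.30 FPKM and PFDN4 at 31.3 against 36.1 FPKM. The actin and tubulin genes, whose products CCT folds, had log2 ratios between -0.17 and 0.17. At those ends TUBA4A was at 18.4 against 20.8 FPKM and TUBA1A had a ratio of -0.17, while ACTG1 was at 326 against 292 FPKM and TUBG1 at 25.7 against 28.5 FPKM. The abundant ACTB was at 187 against 179 FPKM and TUBB at 391.9 against 409 FPKM.

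**Figure D5:**
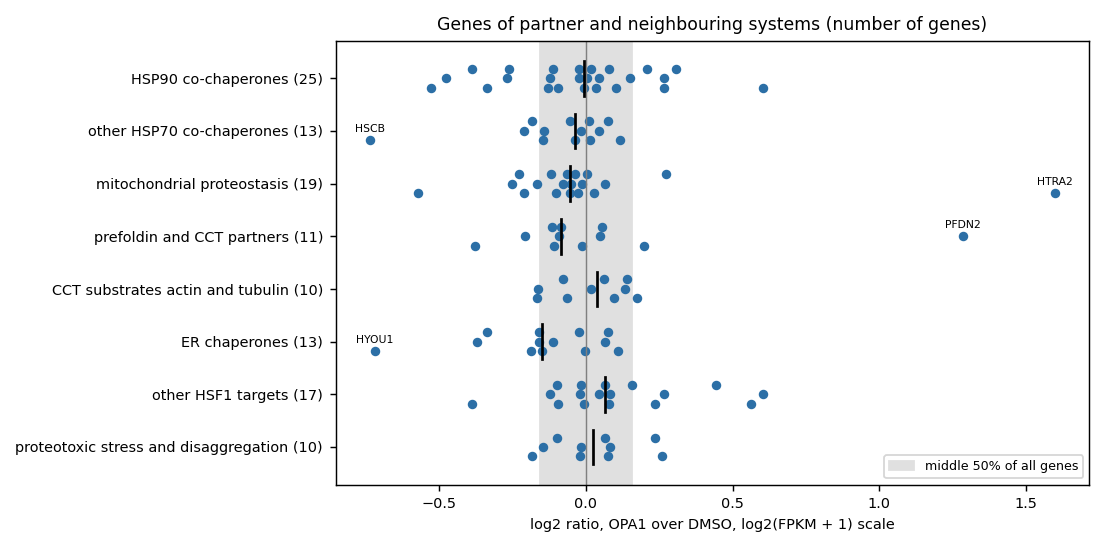
Log2 ratios of OPA1 over DMSO on the log2(FPKM + 1) scale for genes of 8 partner and neighbouring lists, with the number of genes in brackets, a black bar at each median and a grey band for the middle 50% of all genes. The ER chaperone median lies lowest at -0.15, and HTRA2 and PFDN2 stand apart to the right.

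Chaperones of the endoplasmic reticulum were lower for 10 of 13, where 5307 of all 10601 genes were lower, and their median was -0.15. HYOU1, an HSP110 relative of that compartment, had the lowest log2 ratio at -0.72, followed by DNAJB11 at -0.37, CANX at -0.34 and HSPA13 at -0.18. Among the abundant ones HSPA5, the HSP70 of that compartment, was at 164 against 147 FPKM, and HSP90B1, its HSP90, at 282 against 278 FPKM. No test of the difference from the 61 chaperone genes, at least 5 of which also lie in the endoplasmic reticulum or other inner membranes, was possible. Of 17 further target genes of HSF1, 10 were higher, where 49.9% of all genes were, and their median was 0.07. None reached 2-fold, where 1.97% of all genes were at least 2-fold higher and 1.99% lower. CACYBP, a partner of ubiquitin ligases, was at 43.2 against 64.3 FPKM, MRPL18 at 105 against 143 FPKM and CHORDC1, an HSP90 partner, at 18.2 against 13.7 FPKM. STIP1, which links HSP70 to HSP90, was at 113 against 106 FPKM, and the collagen chaperone SERPINH1 was level at 14.04 against 13.97 FPKM. The 10 genes of aggregate handling had a median of 0.03, with HDAC6 at 2.79 against 3.55 FPKM, SQSTM1, an autophagy receptor, at 21.5 against 25.5 FPKM and UBQLN1, a shuttle to the proteasome, at 31.7 against 28.6 FPKM. VCP, which extracts proteins from complexes, was at 32.2 against 34.2 FPKM. Some genes stand in more than 1 list.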

How the data were processed

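Per the labels' protocols, Trizol was used to isolate total RNA of both THP-1 samples, and Illumina libraries were made from it. The authors deposited FPKM per transcript, per the file headers; HISAT, StringTie, edgeR and the build hg19 are named in the submitters' processing notes without versions or roles. The 29373 rows analysed were of type protein_coding, and each reached 0.5 FPKM in at least 1 library; 2 further lines were empty. Strandedness was not given in the sources used here. FPKM values are relative to each library, their read depth is unknown, and a value of exactly 0 can reflect a failed estimate.

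FPKM values were summed per symbol, genes averaging 1 FPKM or more were kept, and log2 ratios were taken after adding 1 FPKM. With 1 library per group there was no test; genes were counted by size at 2-fold. The rule for naming took every kept HSP, CCT, BAG and HSF gene, the 3 highest and 3 lowest ratios of each DNAJ class, the 15 most abundant members, those at 2-fold, the 6 with most FPKM on other transcripts, and up to 4 genes per partner list with the largest ratios. The other DNAJC genes, CDC37, HSPA5, HSP90B1, STIP1, SERPINH1, PFDN5, PFDN6, ACTB, TUBB and VCP were added after their values were seen. The members and lists were chosen with earlier results of these data known, and 1 gene of the HSP70 co-chaperone list is not reported here. Alternatives changed the pseudocount, the minimum, the scaling and the summing of transcripts. Transcript lengths came from GENCODE release 29 by transcript ID, and promoters from RefSeq on GRCh38.p14; neither gave coordinates for the hg19 table. The functions were tested on simulated data. Python 3.11.15, numpy 2.4.6, pandas 2.3.3, Biopython 1.88 and matplotlib 3.10.9 were used.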

Additional observations from a re-analysis of the deposited data

How the results depend on the processing

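Under 8 listed alternatives and 2 more added after seeing the data (weighting by transcript length and leaving out the 2 readthrough genes), a value was called moved when it shifted by 0.1 or more on the log2 scale, or a count by over 1.5 times. The median of the 61 genes and the count of 0 genes at least 2-fold higher did not move under any of the 10. That median, -0.013, is small beside the tolerance, and its sign changed to 0.012 with the leading transcript and 0.014 with weighting by length. The DNAJB median of -0.008 lay between -0.035 and 0.086 across the settings. The count of 2 genes at least 2-fold lower was 1 with a minimum mean of 5 FPKM, 0 among the 42 genes with steady transcript shares, and 4 with the leading transcript in place of the sum. With that last setting the DNAJA median was 0.069 in place of -0.034, and with no minimum, which adds HSF4 and HSF2BP, the HSF median was 0.123 in place of -0.173. The leading transcript also moved 20 single genes and changed the sign of 10, among them CCT5, DNAJA3, DNAJB12, DNAJC19 and HSPA4; weighting by length moved 10 and changed the sign of 4, CCT3, DNAJB12, DNAJC18 and HSPA4. A pseudocount of 0.1 FPKM moved 2 genes. Rescaling each library to a sum of 1000000, after which the added 1 weighs less, moved 1, DNAJC16. No paired analysis was possible because each group has 1 library. Unknown depth leaves counting error without a value.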

Other observations

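The most abundant HSP70 gene had an unusual division among its 12 listed transcripts. The 3 transcripts of HSPA8 that encode the full protein of 646 residues in GENCODE release 29 together held 4.65 against 4.14 FPKM, which was 0.787% and 0.598% of the gene. HSPA8-222, of 410 residues, carried 335 against 394 FPKM, and the HSPA8-212 transcript, an incomplete model of 312 residues, carried 220 against 265 FPKM. The shares were nearly the same in both libraries, at 56.7% and 57.0% for HSPA8-222. The division among transcripts is an upstream estimate whose accuracy for this gene was not tested, so its level is uncertain.

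Chaperone genes with 1 listed transcript, where no exchange can occur, numbered 17, of which 10 were higher and 7 lower with OPA1, with a median log2 ratio of 0.06. Among the 44 genes with more transcripts 17 were higher and 27 lower, with a median of -0.03. Of all genes, 1729 of the 3394 with 1 transcript and 3565 of the 7207 with more were higher, with medians of 0.004 and -0.003. The 8 genes lower by more than 0.32 on the log2 scale all had more than 1 listed transcript. Among all genes 7.78% of those with 1 transcript and 13.0% of those with more were that much lower. Of the 8, HSP90AA1, HSPA9, HSF1 and DNAJC2 kept at least 90% of their FPKM on the same transcripts, and DNAJC7, DNAJC16, DNAJB6 and DNAJA3 did not.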
